A study of Mus musculus with 3 samples.

Results

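The annexins are described here in mPTECs, primary cells of the mouse kidney in their first days on a culture dish. The members were 9 genes (Anxa1, Anxa2, Anxa3, Anxa4, Anxa5, Anxa6, Anxa7, Anxa8 and Anxa11), taken as the non-control probes that carry these gene names in the array files. They were 9 of 19862 named genes and had 16 of 41174 probes, printed as 25 spots on each array.

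The cells came from kidneys of male mice of 1 month, and total RNA was taken from freshly isolated cells (day 0), after 1 day on dishes (day 1) and after 3 days on dishes (day 3). The labels give no genotype, strain or number of animals, and name no treatment other than the culture itself. The medium of the cultured cells held insulin, transferrin, selenium, non-essential amino acids, hydrocortisone, penicillin, streptomycin and 1% FBS. Each day had 1 sample on 1 Agilent 1-colour array, which allows no test and no error between samples. The folds below describe these 3 arrays only.

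Annexins bind acidic phospholipids when calcium is present, through a conserved core of repeats, and each member carries its own N-terminal tail that other proteins recognise. They are known for joining membranes to each other and to the actin cytoskeleton, in exocytosis, endocytosis and the resealing of torn plasma membranes. In the kidney, Anxa2 is known to rise in injured tubules.

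Levels are the processed signal of a spot divided by the 75th percentile of its array, so a level of 1 equals that percentile, which was 1184, 1509 and 1515 intensity units on day 0, day 1 and day 3. Of the 16 probes, 15 were well above background on all 3 arrays and 11 were aimed at RefSeq transcripts. The other 5 had targets of another name and are called clone probes here, without a check of what those targets are. A probe's level depends on its own sequence, so levels are compared between days and never between probes. The error at hand is technical: the SD between spots of the same probe had a median of 0.14 in log2 units (697 values). Over 7468 genes with several probes, the log2 ratios of a gene's probes had a median SD of 0.34 (day 1 against day 0), 0.47 (day 3 against day 0) and 0.27 (day 3 against day 1). A log2 ratio smaller than this SD is called within the probe spread. The median named gene had a log2 ratio of -0.11, -0.11 and -0.04 in the 3 comparisons.

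The results turn on probes that either agree or disagree about their gene, and the sequences of these are shown first, 5′ to 3′ as the array files give them, with mm9 positions. The 60-base probes of Anxa1 and Anxa2 and the RefSeq probe of Anxa6 are printed whole, and of the others the first 30 bases are given. The Anxa1 probe and the first Anxa2 probe cover 1514 and 775 bases of genome, more than their own length, so each crosses a splice junction. Whether the other probes lie in coding sequence, a UTR or an intron was not analysed here.
Anxa1 (chr19:20448248-20449761, minus strand): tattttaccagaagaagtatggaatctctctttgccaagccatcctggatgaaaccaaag
Anxa2, first probe (chr9:69330846-69331620, plus strand): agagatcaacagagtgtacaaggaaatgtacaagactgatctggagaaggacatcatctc
Anxa2, second probe (chr9:69337510-69337569, plus strand): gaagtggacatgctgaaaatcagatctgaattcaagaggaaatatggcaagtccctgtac
Anxa3, RefSeq probe (chr5:97274784-97274843, plus strand): ctagaattaaagacctactaatgattttct
Anxa3, clone probe (chr5:97228985-97229044, plus strand): ctgattctcatagcagtatattttccgatg
Anxa8 (chr14:34913661-34913720, plus strand): atcctctgatcgtggtctccgagcctgaag
Anxa6, RefSeq probe (chr11:54798588-54798647, minus strand): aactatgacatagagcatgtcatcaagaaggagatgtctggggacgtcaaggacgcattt
Anxa6, clone probe (chr11:54804707-54804766, minus strand): tatctccacttatggaaacaaaccaagtcc
Anxa7, RefSeq probe (chr14:21275240-21275299, minus strand): aggaataagccacagtaactcgggtcgatg
Anxa7, first clone probe (chr14:21278155-21278214, minus strand): gatacacttcctatagacgtcatgtcggga
Anxa7, second clone probe (chr14:21290387-21290446, minus strand): aagattcttaagagagagagagctgggaga
The longest run of bases shared by probes of different annexins was 9, between Anxa2 and Anxa7, over 180 pairs of probes.

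Each gene was counted by 1 standing probe, the one with the highest mean signal over the 3 arrays. After 1 day on the dish 8 of the 9 annexins were higher than in fresh cells by that probe, where 44.1% of all genes were. Anxa7 was among the 8, although its other probes were lower than in fresh cells (log2 -0.62 and -1.01). Anxa1, Anxa2, Anxa3, Anxa4, Anxa5 and Anxa8, 6 of the 9, were at least 2-fold higher, against a background of 13.5% of all genes. With reference gene scaling 5 were, since Anxa1 was at log2 0.86. Anxa2, Anxa3 and Anxa8 were at least 4-fold higher, where 3.37% of genes were. With median centring and with spike-in scaling Anxa5 was too (log2 2.04 and 2.05). By the standing probe no member was at least 2-fold lower, against 15.3% of genes, while by the mean of probes Anxa6 was (log2 -1.05). The median log2 ratio of the 9 members was 1.32.

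On day 3 all 9 standing probes were above day 0, where 45.4% of all genes were. Those of Anxa7 and Anxa11 stayed within the probe spread, and other probes of Anxa6 and Anxa7 were below day 0. Anxa1, Anxa2, Anxa3, Anxa5 and Anxa8 passed 2-fold, where 16.5% of genes were so much higher, and the same 5 passed 4-fold, where 5.32% were. Over the alternatives the log2 ratio ran from 0.57 to 1.33 for Anxa4 and from -0.51 to 1.30 for Anxa6. Both thus passed 2-fold under some alternatives and not under others. By the standing probe none was at least 2-fold lower, against 21.4% of genes, while by the mean of probes Anxa7 was (log2 -1.16). The median log2 ratio of the members was 2.29. Between day 3 and day 1 the members differed less, with a median log2 ratio of 0.46. On day 3, 6 were higher than on day 1, where 45.8% of all genes were, and 3 were lower. Anxa1 and Anxa8 were the 2 that differed by at least 2-fold, both higher, where 6.96% of genes passed 2-fold upwards and 8.06% downwards. When scaled to reference genes or to spike-ins 4 members passed, Anxa2 (log2 1.02 and 1.00) and Anxa6 (1.17 and 1.16) besides. These are values of the standing probe, and the clone probe of Anxa6 gave log2 0.10 with the percentile scaling. No member differed by 4-fold between these days, where 1.62% of genes were higher and 1.27% lower by that much. In bulk RNA a change in the number of cells of a type and a change in RNA per cell cannot be told apart.

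**Figure D1:**
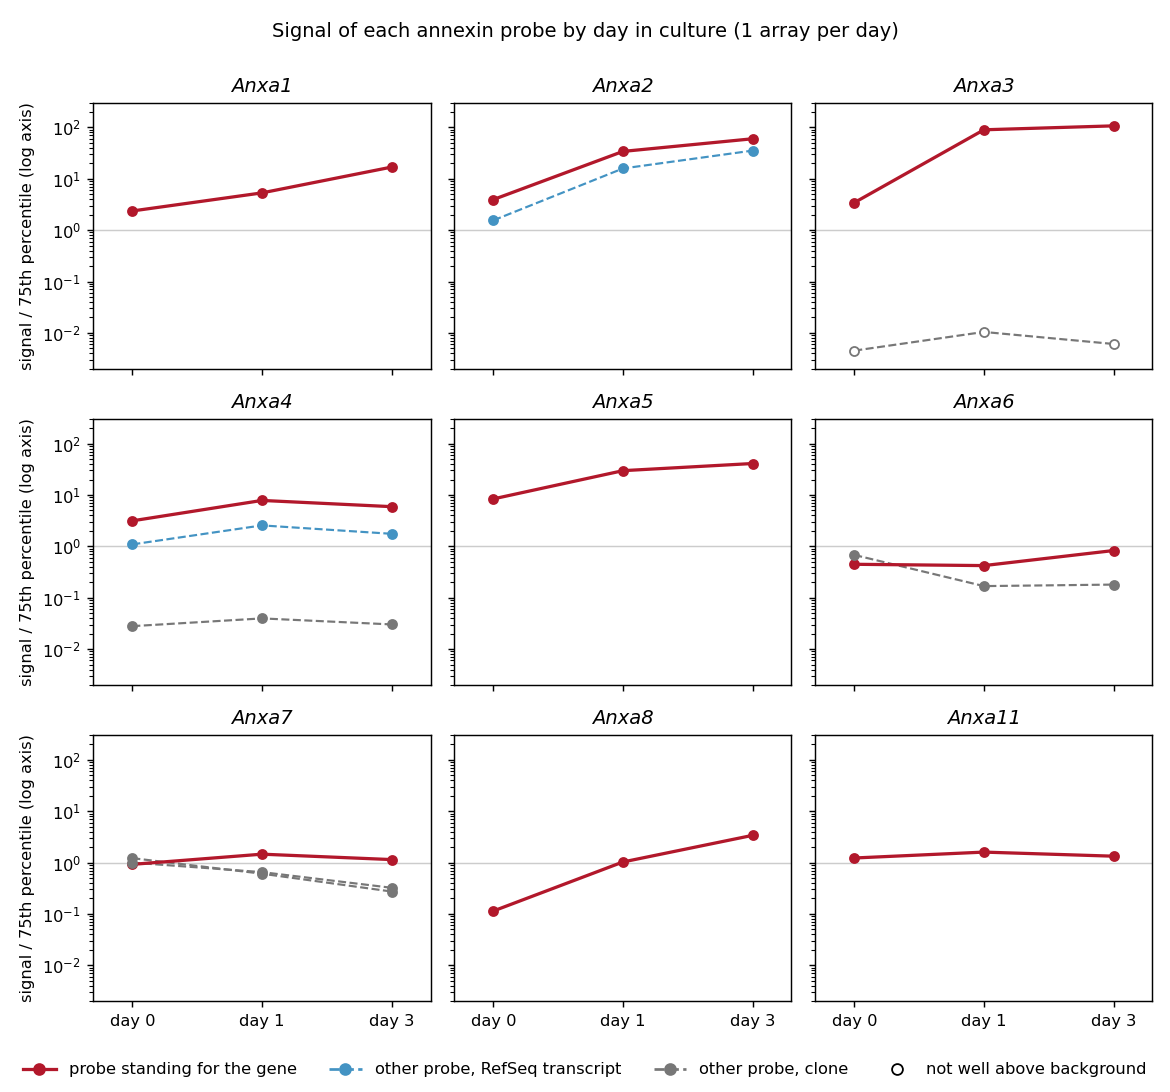
Level of every annexin probe on day 0, day 1 and day 3 (processed signal over the 75th percentile of the array, log axis), 1 panel per gene and 1 point per array, with open points where a probe was not well above background. The standing probe of Anxa3 goes through 3.42, 89.8 and 107 and that of Anxa8 through 0.114, 1.03 and 3.39, while Anxa11 stays between 1.23 and 1.60.

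By the standing probe Anxa3 had the highest day 1 ratio to day 0 of the 9 members, and its day 3 ratio was within the probe spread of that of Anxa8. Its protein is abundant in neutrophils and its role in epithelium is less settled than that of Anxa1 or Anxa2. The RefSeq probe read 3.42 on day 0, 89.8 on day 1 and 107 on day 3. That made Anxa3 26.2-fold higher on day 1 and 31.3-fold higher on day 3 than on day 0 (log2 4.71 and 4.97), and 0.228% and 0.668% of genes had a higher ratio. Of the day 3 log2 difference, 94.9% was present on day 1, and day 3 against day 1 (log2 0.25) was within the probe spread. The clone probe of Anxa3 was not well above background on any array, and averaging it in gave log2 2.96 and 2.70.

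Neutrophils also carry Anxa3. Summed levels of the neutrophil markers, 4 of 5 well above background on day 0, 3 on day 1 and 4 on day 3, were 1.01, 0.397 and 0.247 on the 3 days. S100a9 read 0.666, 0.0960 and 0.0990, and Mpo 0.222, 0.243 and 0.0849. Elane read 0.0270, 0.0314 and 0.0297, Csf3r was not well above background on any array and S100a8 was not on day 1. Of the 4 with values, 2 were higher and 2 lower on day 1 than on day 0, and 1 was higher and 3 lower on day 3. Their part in the Anxa3 values was not tested.

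Anxa8, best known from stratified epithelia such as skin and for inhibiting coagulation in vitro, was printed 10 times on each array and is the member with the most measurements. On day 0 its spots read 0.0924 at the lowest, 0.117 at the median and 0.128 at the highest, on day 1 the 3 values were 0.899, 1.02 and 1.19, and on day 3 they were 3.09, 3.33 and 3.78. The 3 ranges did not overlap, and spots within an array had an SD of 0.15, 0.12 and 0.11 on the log2 scale. These spots share 1 sample a day, so they measure how well an array reads Anxa8 and not how cultures vary. The means gave a level 9.01-fold higher on day 1 and 29.7-fold higher on day 3 than on day 0 (log2 3.17 and 4.89), and 3.30-fold higher on day 3 than on day 1. Of the day 3 log2 difference, 64.8% was present on day 1. With normexp background correction the log2 ratio for day 1 was 2.67 and that for day 3 was 4.31.

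Keratinocyte and urothelial markers did not move together. Their summed level was 1.59, 81.1 and 28.2 on the 3 days, with all 6 markers well above background on each array and Krt20 alone at 0.568, 78.5 and 26.3. Krt5 read 0.327, 1.86 and 1.09, Trp63 0.0482, 0.0586 and 0.102, and Upk2 0.119, 0.0894 and 0.104. Krt14 read 0.511, 0.582 and 0.576, and Upk1b 0.0191, 0.0144 and 0.0286. Of the 6 markers, 2 were at least 2-fold higher on day 1 than on day 0, where 13.5% of genes were. On day 3 it was 3 of the 6, where 16.5% of genes were. Their part in the Anxa8 values was not tested.

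**Figure D2:**
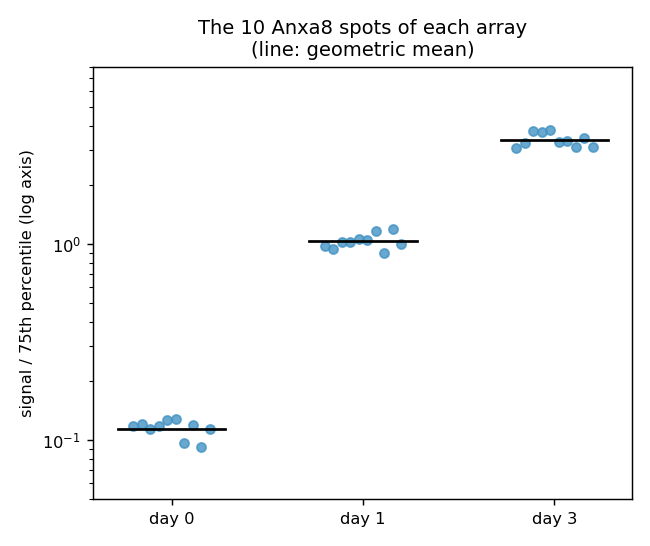
Each point is 1 of the 10 Anxa8 spots on the array of a day (processed signal over the 75th percentile of the array, log axis), and the line is their geometric mean. The day 1 spots, from 0.899 to 1.19, lie above all day 0 spots and below all day 3 spots, which run from 3.09 to 3.78.

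Anxa2 binds S100a10 to form a complex at the plasma membrane that gathers plasminogen and links membrane to actin. Its second probe read 3.94 on day 0, 34.1 on day 1 and 60.0 on day 3, which was 8.65-fold and 15.3-fold higher on day 1 and day 3 than on day 0 (log2 3.11 and 3.93). The first probe, across the splice junction, read 1.55, 15.9 and 35.3, with log2 ratios of 3.36 and 4.51. Both probes were higher still on day 3 than on day 1, by log2 0.82 and 1.16. On day 1, 79.2% of the day 3 log2 difference was present.

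Anxa5 is the protein used as a probe for phosphatidylserine on dying cells. It read 8.39, 29.7 and 41.0 on day 0, day 1 and day 3, and was 3.55-fold higher on day 1 and 4.89-fold higher on day 3 than on day 0 (log2 1.83 and 2.29). Day 3 was 1.38-fold above day 1, beyond the probe spread. As with Anxa2, most of the difference, 79.8% on the log2 scale, was present on day 1.

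Anxa1, a glucocorticoid-regulated protein that dampens inflammation through formyl peptide receptors, had more of its difference after day 1. Its probe read 2.36 on day 0, 5.31 on day 1 and 16.9 on day 3. The level was 2.25-fold higher on day 1 and 7.15-fold higher on day 3 than on day 0 (log2 1.17 and 2.84), and 3.18-fold higher on day 3 than on day 1. Of the day 3 log2 difference, 41.2% was present on day 1. The medium of the cultured cells contained hydrocortisone, a glucocorticoid, and its part in the Anxa1 level was not tested. Macrophage markers, which come from cells that also express Anxa1, had a summed level of 14.2, 10.5 and 17.1 on the 3 days with all 7 well above background. They did not move together. Lyz2, the largest part of the sum, read 12.0, 6.12 and 13.4, and Cd68 0.162, 1.98 and 0.822. Cd14 read 0.862, 1.49 and 2.09, and Ptprc 0.414, 0.147 and 0.138. Csf1r read 0.407, 0.402 and 0.396, Adgre1 0.296, 0.323 and 0.253, and Itgam 0.0301, 0.0464 and 0.0464. On day 1 and again on day 3, 4 of the 7 markers were higher than on day 0 and 3 lower. Of all genes, 44.1% and 45.4% were higher on those days. Their part in the Anxa1 values was not tested.

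Anxa4 is an epithelial annexin linked to vesicle fusion and membrane repair. Its standing probe read 3.14, 7.83 and 5.92 on day 0, day 1 and day 3, so that it was 2.49-fold higher on day 1 and 1.89-fold higher on day 3 than on day 0 (log2 1.32 and 0.92). It was lower on day 3 than on day 1, with a log2 ratio of -0.40. A second RefSeq probe gave 1.23 and 0.68 for the 2 ratios to day 0, and the clone probe, which read only 0.0280 on day 0, gave 0.50 and 0.11. All 3 probes were highest on day 1.

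**Figure D3:**
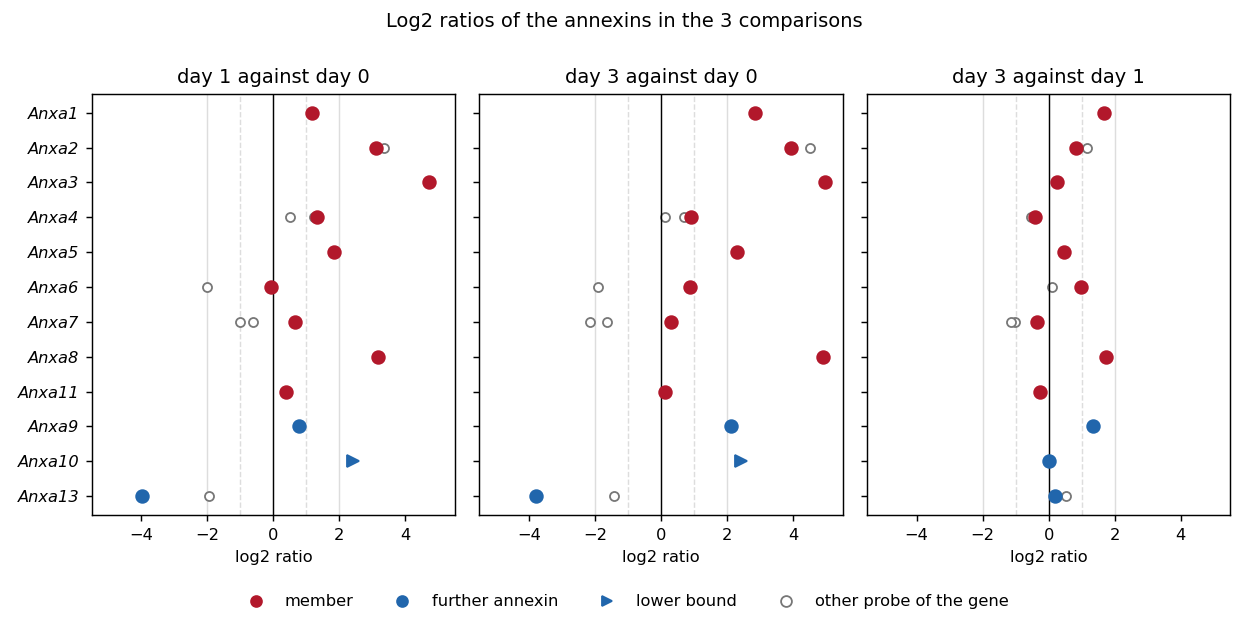
Log2 ratio of every measured annexin probe in the 3 comparisons, with filled points for the probe that stands for a gene, open points for its other probes and a triangle for a lower bound. Against day 0, the probes of Anxa2 and Anxa4 all lie right of 0, while the clone probes of Anxa6 and Anxa7 lie left of it, at -0.62 or below.

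Anxa6 and Anxa7 are the members whose probes disagreed. The counts above take them by the standing probe, or by the mean of probes where said. No direction of either gene is drawn from those counts. Anxa6, the longest annexin, recruits Rasa1 to membranes. Its RefSeq probe read 0.448, 0.422 and 0.829 on the 3 days, with a log2 ratio of -0.08 on day 1 and 0.89 on day 3 against day 0. The day 1 ratio was within the probe spread and turned positive with median centring, quantile normalization and spike-in scaling. The clone probe, 6119 bases upstream on the genome, read 0.681, 0.168 and 0.180, with log2 ratios of -2.02 and -1.92.

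Anxa7, also called synexin, promotes the fusion of membranes and binds sorcin. The RefSeq probe read 0.923, 1.46 and 1.14 on day 0, day 1 and day 3, with log2 ratios to day 0 of 0.66 and 0.31. Both clone probes were lower on each later day. The first, 2915 bases upstream, read 0.998, 0.652 and 0.323, with log2 ratios of -0.62 and -1.63, and the second, 15147 bases upstream, read 1.22, 0.607 and 0.273, with log2 ratios of -1.01 and -2.16. With the mean of the probes in place of the RefSeq probe, the log2 ratio of Anxa7 was -0.32 on day 1 and -1.16 on day 3, and that of Anxa6 was -1.05 and -0.51. What the clone probes detect was not analysed here.

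Anxa11 binds Pdcd6 and tethers RNA granules to lysosomes. Its day 3 ratio was the lowest of the 9 standing probes, with levels of 1.23, 1.60 and 1.33 on the 3 days. The log2 ratio was 0.38 on day 1 and 0.12 on day 3 against day 0, and the day 3 value was within the probe spread and below 0 with normexp and with background-subtracted signals.

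**Figure D4:**
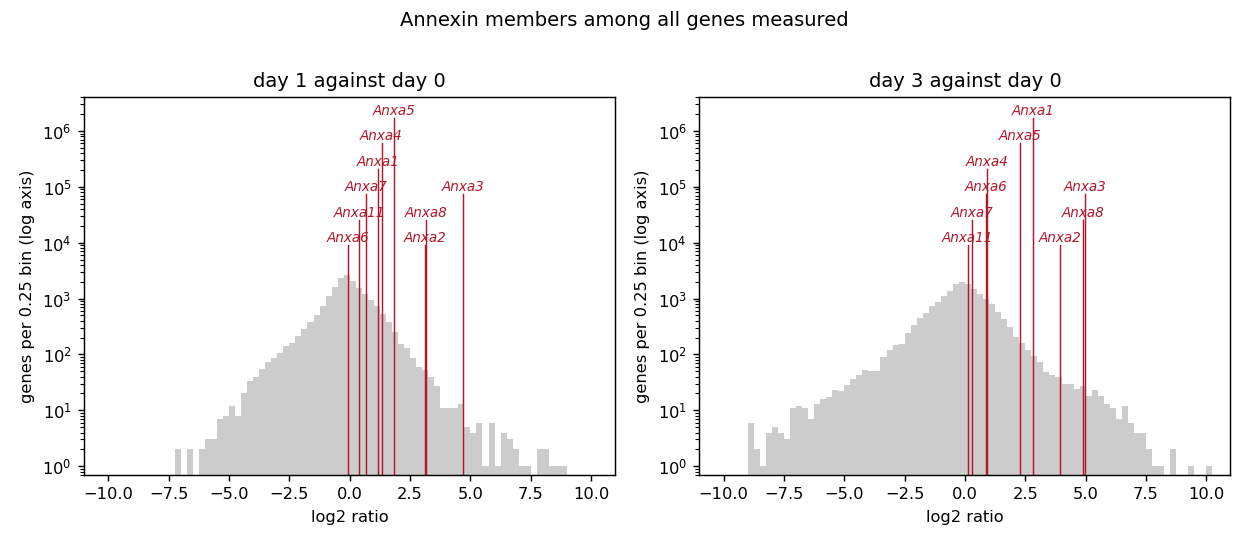
Distribution of the log2 ratios of all genes measured, for day 1 against day 0 (18910 genes) and day 3 against day 0 (19105 genes), as genes per bin of 0.25 on a log axis, with a line at each annexin. Line heights only separate the names, and Anxa2, Anxa3 and Anxa8 lie far to the right in both panels.

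The other annexins on the array were not members of the set described, and they did not run one way. Anxa13, an annexin of intestinal and renal epithelium that works in apical transport, was 15.9-fold lower on day 1 and 13.8-fold lower on day 3 than on day 0 (log2 -3.99 and -3.79), with levels of 1.90, 0.120 and 0.137. Its other probe gave smaller differences, log2 -1.96 and -1.44. With normexp correction the first probe gave -3.42 and -3.03 and the other probe -1.70 and -1.46. On day 1, 5.15% of genes were at least 4-fold lower than on day 0, and on day 3 it was 7.8%. Anxa9, whose core has lost calcium-binding residues, read 0.170, 0.292 and 0.739. It was 4.35-fold higher on day 3 than on day 0 (log2 2.12, or 1.68 with normexp correction). Anxa10, known from gastric epithelium, read 0.0646 on both day 1 and day 3. Its day 0 signal was not well above background, which makes it at least 5.32-fold higher on both later days, although with normexp correction its log2 ratios were 0.82 and 0.81.

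The S100 proteins that pair with annexins were higher as well. S100a10, the partner of Anxa2, read 31.9 on day 0, 93.6 on day 1 and 88.8 on day 3, log2 1.55 and 1.48 above day 0. S100a11, which binds Anxa1, read 4.69, 36.2 and 31.9, log2 2.95 and 2.77 above day 0. S100a6, which binds Anxa2 and Anxa11, read 2.99, 186 and 272, and was 62.3-fold higher on day 1 and 90.9-fold higher on day 3. S100a4, a partner of Anxa2, read 4.92, 9.32 and 34.7, and most of its difference came after day 1. On day 3 all 4 had passed 2-fold, where 16.5% of genes had, and 3 had passed 4-fold, where 5.32% had. Their median log2 ratio was 2.79, beside -0.11 for all genes.

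The other protein partners went both ways. On day 3 against day 0, 2 of the 9 passed 2-fold upwards and 3 downwards, where 16.5% and 21.4% of genes did, and the median log2 ratio was 0.09. Ahnak, the giant scaffold held at the membrane by the Anxa2 complex, read 4.15, 29.9 and 32.8, and its 6 probes gave day 3 log2 ratios from 0.91 to 3.01. Plat, the tissue plasminogen activator that Anxa2 binds, was 2.13-fold higher on day 3 than on day 0. Its log2 ratio of 1.09 was 0.90 after normexp correction, and its other probes gave 0.61 and 0.97, below 2-fold. Plg, plasminogen, was 2.16-fold lower on day 3 than on day 0. The log2 ratio of Plg, -1.11, was -0.51 after normexp correction of the same probe and -0.08 by the other probe. Trpv5, a renal calcium channel brought to the surface by the Anxa2 and S100a10 complex, was 4.22-fold lower on day 3 than on day 0, and Trpv6, its relative, 2.50-fold lower (log2 -1.32, or -0.80 with normexp correction). Trpv5 read 0.185, 0.0343 and 0.0440 on the 3 days. With normexp correction its log2 ratio was -1.61 on day 1 in place of -2.44, and -1.56 on day 3 in place of -2.08. Pdcd6, the calcium sensor that binds Anxa7 and Anxa11, read 24.8, 54.2 and 36.6 and was highest on day 1. Distal tubule and collecting duct markers, not all of them from cells that use Trpv5, had a summed level of 26.8, 5.87 and 2.29 on the 3 days. Their part in the Trpv5 values was not tested. Of the protein partners, Pdcd6ip and Rasa1 changed direction under some settings and no direction is given for them.

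The formyl peptide receptor genes gave 3 values from 5 listed genes. Fpr2, the main receptor of annexin A1 among them, read 0.222, 0.0966 and 0.0495 on day 0, day 1 and day 3. It was 4.49-fold lower on day 3 than on day 0 (log2 -2.17, or -1.63 with normexp correction). Its other probe gave log2 0.61 on day 1 and -0.77 on day 3. Fpr-rs3 read 0.102, 0.121 and 0.279, 2.74-fold higher on day 3 than on day 0. Fpr1 had log2 ratios of -0.39 and -0.24, the second of which was positive with median centring, quantile normalization and spike-in scaling. Fpr-rs4 was not well above background on any array and Fpr3 had no probe.

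Of the membrane repair genes, 11 of 12 had values, and on day 3 against day 0, 5 had passed 2-fold upwards, 3 of these 4-fold, and none 2-fold downwards, where 16.5%, 5.32% and 21.4% of genes did. Their median log2 ratio was 0.84. Myof, myoferlin, a ferlin of membrane fusion and repair, read 5.23, 34.1 and 37.5 (log2 2.71 and 2.84 above day 0). Capn2, the large subunit of m-calpain, read 2.10, 9.54 and 11.7, and Cav1, the main coat protein of caveolae, read 3.71, 3.03 and 17.6, above day 0 on day 3 but not on day 1. Vps4a, an ATPase of the ESCRT machinery that pinches off damaged membrane, had the lowest day 3 ratio of the list, with log2 ratios of 0.48 and -0.06, the second of which turned positive with median centring, quantile normalization and spike-in scaling. The other calcium-dependent membrane binding genes had a median log2 ratio of 0.77 on day 3, and 4 of 10 passed 2-fold upwards, where 16.5% of genes did. The copine gene Cpne2 had the highest ratio, 4.88-fold above day 0 on day 3 with levels of 0.288, 1.24 and 1.41. This was log2 2.29, or 1.91 with normexp correction. Syt7, a synaptotagmin of lysosome exocytosis, had the lowest day 3 ratio, log2 -0.71, and its day 1 ratio was 0.84 by the standing probe, with its probes running from -0.49 to 0.84.

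**Figure D5:**
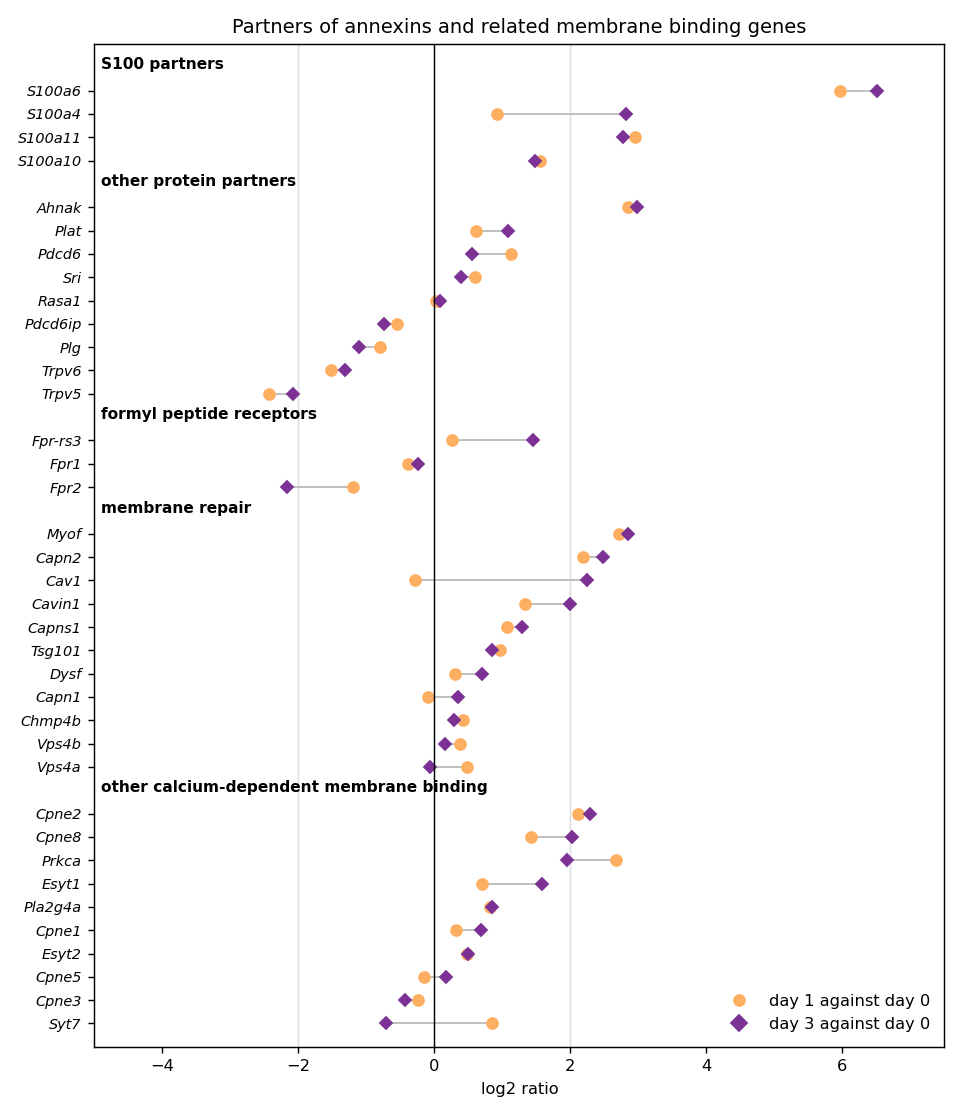
Log2 ratio, day 1 against day 0 and day 3 against day 0, of the listed partner, receptor, membrane repair and other calcium-dependent membrane binding genes, 1 row per gene. The 4 S100 partners lie to the right of 0 on both days, while Trpv5 and Fpr2 lie to the left.

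Likeness in the 2 ratios to day 0 was measured over 3 arrays and 18328 genes. Genes with clone or prediction names, or with a probe running the other way, were then passed over. Of the rest, the nearest to Anxa3 were Igf2bp1, S100a14, Klf5, Mthfd2 and Asns, at Euclidean log2 distances of 0.0465 to 0.315. Those nearest to Anxa11 were Minpp1, Akap10, Arl15, Nupl2 and Sapcd1, at 0.00469 to 0.0238, where ratios near 0 are common. With 2 ratios per gene, these are lists of like values on 3 arrays and no more.

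The promoters of Anxa1, Anxa2 and Anxa8, which were higher in culture, and of Anxa11, which had the lowest day 3 ratio, are shown as the 250 bases before the start of the gene, from RefSeq on GRCm38.p6. Of the 9 members 7 had an entry, and Anxa3 and Anxa6 had none. Capitals mark the motifs found on either strand, which do not overlap each other.
Anxa1 (chr19:20390672-20390921, minus strand): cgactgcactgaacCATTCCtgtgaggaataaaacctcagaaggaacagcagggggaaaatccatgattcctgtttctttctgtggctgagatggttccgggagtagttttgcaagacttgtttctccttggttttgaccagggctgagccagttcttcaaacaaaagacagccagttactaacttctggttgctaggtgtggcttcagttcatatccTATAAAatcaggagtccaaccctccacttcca
Anxa2 (chr9:69453433-69453682, plus strand): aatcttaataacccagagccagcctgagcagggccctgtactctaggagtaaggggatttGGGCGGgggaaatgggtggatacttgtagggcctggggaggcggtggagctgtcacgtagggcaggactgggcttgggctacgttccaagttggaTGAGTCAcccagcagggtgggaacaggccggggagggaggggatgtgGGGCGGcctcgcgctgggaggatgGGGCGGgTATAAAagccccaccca
Anxa8 (chr14:34085729-34085978, plus strand): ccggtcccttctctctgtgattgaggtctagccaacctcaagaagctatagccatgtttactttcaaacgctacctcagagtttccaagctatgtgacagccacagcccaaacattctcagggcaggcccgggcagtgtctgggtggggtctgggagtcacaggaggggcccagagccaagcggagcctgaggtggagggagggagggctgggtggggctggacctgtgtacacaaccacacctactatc
Anxa11 (chr14:25841905-25842154, plus strand): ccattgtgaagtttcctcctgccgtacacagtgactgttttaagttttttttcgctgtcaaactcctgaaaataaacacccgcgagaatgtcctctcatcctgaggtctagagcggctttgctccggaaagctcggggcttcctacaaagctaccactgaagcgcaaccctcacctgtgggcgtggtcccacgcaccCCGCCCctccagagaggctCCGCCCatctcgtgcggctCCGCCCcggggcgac
The motifs searched were AP-1 (TGANTCA, in 6.75% of 32851 promoter windows of this length), TEAD (GGAATG, 12.6%), the TATA box (TATAAA, 12.4%), the GC box (GGGCGG, 32.7%), the glucocorticoid response element (AGAACA and TGTTCT with 3 bases between, 0.00913%) and CRE (TGACGTCA, 1.55%). Positions are those of a motif's first base in the printed strand. The Anxa1 window held a TEAD motif 236 bases and a TATA box 32 bases before the start. In Anxa2 there was an AP-1 motif at 95 bases, a TATA box at 17 and GC boxes at 190, 48 and 24. Anxa11 held GC boxes at 53, 34 and 15 bases, and the Anxa8 window held none of the 6 motifs. A match is only a description of the letters.

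The label of the cells was checked against markers. All 12 proximal tubule markers were well above background on each array, with summed levels of 523, 52.8 and 13.2 on the 3 days, and all 12 were at least 4-fold lower on day 3 than on day 0, where 7.8% of genes were. Loop of Henle markers were also present, at 333, 87.4 and 14.3, and endothelial markers at 29.4, 15.7 and 5.62, podocyte markers at 1.82, 0.118 and 0.321, fibroblast markers at 3.30, 3.80 and 2.97. The fibroblast markers did not move together. Pdgfrb, the largest part of their sum, read 2.39, 2.93 and 1.30, Col1a1 0.120, 0.0735 and 0.857, and Col3a1 0.135, 0.196 and 0.411. Other probes of Col1a1 and Col3a1 gave day 3 log2 ratios to day 0 down to -0.21 and 0.19. Of the 6 fibroblast markers, 3 were higher and 3 lower on day 3 than on day 0, where 45.4% of all genes were higher. Mesothelial markers were at 1.14, 0.713 and 18.1. Msln read 0.0470, 0.431 and 17.4, Upk3b 0.0256, 0.0276 and 0.396, Lrrn4 0.0149, 0.0223 and 0.0313, and Wt1 1.06, 0.232 and 0.333. On day 3 against day 0, 3 of these 4 were at least 2-fold higher, where 16.5% of genes were. The remaining 1, Wt1, was at least 2-fold lower, where 21.4% of genes were. The part of these cells in the annexin values was not tested.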

How the data were processed

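Total RNA of 3 samples was labelled with Cy3 and hybridised to 1 Agilent mouse array each. The main values are the deposited processed signals, an intensity per spot that Agilent Feature Extraction 10.5.1.1 had corrected for background and spatial trend, per the file headers. Version 9.1 stands in the submitters' processing notes. The mean, background and background-subtracted signals used in alternatives are also deposited intensity values, and the flags for spots well above background, saturated or outlying are of other kind, set to 0 or 1 per the file headers. The authors' deposited value table is a ratio, and on every array its 43379 values differed by at most 0.0005 from the processed signal over that array's 75th percentile.

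The log2 processed signal minus that percentile was used (Python 3.11.15, pandas 2.3.3, numpy 2.4.6). Each array held 45018 spots, 1639 of them controls. Outlier spots were left out (94, 102 and 85 on day 0, day 1 and day 3) and none was saturated, with 18744, 18612 and 18870 genes well above background. Spots of a probe were averaged, and the probe with the highest mean stood for its gene. Probes were named by RefSeq accession (26877), symbol (5020) or synonym (832), 16 by a member's gene name, and 8429 had no name. Where that probe was not well above background on one array of a comparison, the ratio is a bound against the probe's own signal there or, if that is higher, the lowest signal well above background, which was 1.14%, 1.06% and 0.936% of the percentile. Differences were counted from 2-fold (log2 1) and 4-fold (log2 2). No test was possible on 1 array per day, and precision is limited by that number. The arithmetic was tested on simulated data.

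All members and their probes, the further annexins and the partners could be named, and from each other list the members with the highest and the lowest day 3 against day 0 ratio. Fpr1, Fpr-rs4, Fpr3, Capn2, Cav1 and the promoters of Anxa1, Anxa2 and Anxa8 were chosen beyond this rule, after values were seen. The members and lists were chosen with earlier results of these data known. Alternatives were median centring, quantile normalization, reference gene and spike-in scaling, normexp correction (limma 3.58.1 in R 4.3.3, offset 50), background-subtracted signals, the mean of probes, a stricter filter, outlier spots kept and the deposited table. Background corrections with the probe held were added after seeing the data.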

Additional observations from a re-analysis of the deposited data

How the results depend on the processing

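No paired analysis was possible because each day had 1 array, and for the same reason no replicate could be left out. The counts and medians of the annexin members kept within 1.5 times or within the probe spread in 146 of 150 combinations of result and alternative. The exceptions were the members at least 2-fold lower with the mean of probes, 1 rather than 0 on day 1 and 1 rather than 0 on day 3 against day 0, and the members at least 2-fold higher on day 3 than on day 1, 4 rather than 2 when scaled to reference genes or to spike-ins. Smaller differences in a count, such as 5 rather than 6, are not among these exceptions. With the deposited table, the stricter filter and outlier spots kept, all 15 results stayed the same. These alternatives leave the values of the members nearly unchanged, so the results could hardly have moved there. The mean of probes averages Anxa3 with a probe not above background, which gives log2 2.96 on day 1 and 2.70 on day 3. The median of all spots shifted by -0.21 on day 1 and -0.31 on day 3 against day 0 relative to the percentile, spike-ins by -0.23 and -0.41, and reference genes by 0.31 and 0.11. Over all genes, the share of 4-fold differences that were higher was 39.6%, 40.6% and 56.0% for day 1 against day 0, day 3 against day 0 and day 3 against day 1. It was 51.7% and 56.3% for the first and second of these with median centring, 52.6%, 61.6% and 68.7% with spike-in scaling, and 25.6% and 69.6% for the first and last with reference gene scaling. Genes at least 2-fold higher on day 1 numbered 1665 rather than 2557 with reference gene scaling. For day 3 against day 0, spike-in scaling gave 4935 rather than 3152 genes at least 2-fold higher, 2726 rather than 4095 lower, and at 4-fold 1589 rather than 1017 higher and 990 rather than 1491 lower. For day 3 against day 1, normexp correction gave 838 rather than 1532 genes at least 2-fold lower and 132 rather than 241 at least 4-fold lower. The cause was not tested. Signal over background limited Anxa10, which has only a bound against day 0, and the Anxa3 clone probe, which has no ratio. Under one or both background corrections another probe became the brightest for Anxa13, Plg, Myof and Cpne3, so their values there come from that probe.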
